A study of Mus musculus with 27 samples.

Results

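The apicobasal polarity genes described here are 10 genes that encode the core proteins dividing an epithelial cell into an apical and a basolateral side: Pard3, Pard6a, Pard6b, Pard6g, Prkci, Prkcz, Crb3, Llgl1, Llgl2 and Scrib. They were chosen by gene symbol as the core of the 3 polarity groups, with no threshold on their values but with earlier results of these data known, and all 10 were found among the 24953 genes of a table of transcript levels in 9 RNA-seq libraries. The libraries came from mK4 cells, a mouse line derived from the metanephric mesenchyme, the embryonic tissue that turns into kidney tubule epithelium. There were 3 libraries of parental control cells, 3 of Runx1KO cells, in which CRISPR-Cas9 removed the third exon of Runx1, and 3 of ZebDKO cells, in which the second exon of Zeb1 and the first exon of Zeb2 were removed. Runx1 is a DNA-binding factor of the Runt family, and Zeb1 and Zeb2 are zinc finger repressors best known for keeping epithelial genes off in mesenchymal cells. Cells of all 3 genotypes grew in triplicate in serum-containing medium to near confluence, with no further agent. The study calls its replicates biological triplicates, and they were grown as separate cultures, so p-values measure the spread between such cultures. Chromatin accessibility (ATAC-seq) and Runx1 and Runx2 binding (ChIP-seq) were measured in control and Runx1KO cells only. The number of clones behind the 3 libraries of a knockout is not stated, so clone and genotype cannot be told apart, and the ZebDKO libraries carry a separately worded protocol, so any batch and that genotype cannot be told apart either.

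Polarity in epithelia rests on 3 groups of proteins that exclude each other from parts of the cell cortex. The Par group, made of the scaffold Par3, the adaptor Par6 and an atypical protein kinase C (aPKC), sits near the tight junction and at the apical side. The Crumbs group, built on a small membrane protein such as Crb3, marks the apical membrane and binds Par6. The Scribble group, with Scrib and the Lgl proteins, holds the basolateral side, and aPKC removes Lgl from the apical cortex by phosphorylation. Par6 is encoded by Pard6a, Pard6b and Pard6g, aPKC by Prkci and Prkcz, and Lgl by Llgl1 and Llgl2. Zeb proteins bind the letters CAGGTG, a form of the E-box, or CAGGTA. Other zinc finger and basic helix-loop-helix factors bind E-boxes as well.

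Of the 10 genes, Pard6b, Crb3, Llgl2 and Prkcz rose by more than 2-fold in Runx1KO cells, Pard6g fell by more than 2-fold, and Pard3, Pard6a, Prkci, Llgl1 and Scrib stayed within 10% of the control mean. The genes that rose by more than 2-fold lie within 20 kb of regions that the authors' ATAC-seq lists give as opening in Runx1KO cells. So do Pard3, Llgl1 and Prkci, 39.5% of all genes tested and placed on the genome, and 77% of those that rose by more than 2-fold. Stretches nearest the starts of the genes that rose by more than 2-fold are shown from the mm9 genome, 5′ to 3′ on the strand of the gene. CAGGTG or CAGGTA and their reverse complements CACCTG and TACCTG are in capitals. The bases before the RefSeq starts of Crb3 and Prkcz lie in opening regions, those before Pard6b and Prkci lie in regions open in both genotypes, and the Llgl2 and upstream Pard6b stretches are the middle 300 bases of opening regions. Prkci, whose mean stayed within 10% of control in Runx1KO cells, is given for contrast.
Crb3, chr17:57201374-57201593, plus strand, ending in an untranslated stretch of an exon of a longer transcript: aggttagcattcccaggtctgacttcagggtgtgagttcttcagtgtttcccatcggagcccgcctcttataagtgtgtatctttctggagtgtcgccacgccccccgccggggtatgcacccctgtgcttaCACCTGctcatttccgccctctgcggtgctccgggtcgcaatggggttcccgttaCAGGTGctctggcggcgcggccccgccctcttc
Prkcz, chr4:154735538-154735787, minus strand, directly before the start: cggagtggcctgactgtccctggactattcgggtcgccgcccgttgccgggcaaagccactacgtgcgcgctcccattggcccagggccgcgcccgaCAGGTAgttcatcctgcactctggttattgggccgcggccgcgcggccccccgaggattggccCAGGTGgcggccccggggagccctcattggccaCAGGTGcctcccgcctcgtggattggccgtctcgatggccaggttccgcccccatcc
Llgl2, chr11:115685498-115685797, plus strand, in the first intron: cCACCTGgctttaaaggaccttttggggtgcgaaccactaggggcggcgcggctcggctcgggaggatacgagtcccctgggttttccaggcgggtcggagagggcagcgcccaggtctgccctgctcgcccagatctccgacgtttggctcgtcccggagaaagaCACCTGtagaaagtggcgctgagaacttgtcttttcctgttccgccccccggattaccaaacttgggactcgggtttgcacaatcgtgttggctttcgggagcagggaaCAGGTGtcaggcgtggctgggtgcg
Pard6b, chr2:167903986-167904285, plus strand, intergenic and upstream of the start: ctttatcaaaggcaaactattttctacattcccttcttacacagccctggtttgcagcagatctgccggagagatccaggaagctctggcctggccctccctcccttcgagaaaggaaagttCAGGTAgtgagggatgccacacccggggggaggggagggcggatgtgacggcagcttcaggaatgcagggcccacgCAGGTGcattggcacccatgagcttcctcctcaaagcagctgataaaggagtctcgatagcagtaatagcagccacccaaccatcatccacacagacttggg
Pard6b, chr2:167906254-167906503, plus strand, directly before the start: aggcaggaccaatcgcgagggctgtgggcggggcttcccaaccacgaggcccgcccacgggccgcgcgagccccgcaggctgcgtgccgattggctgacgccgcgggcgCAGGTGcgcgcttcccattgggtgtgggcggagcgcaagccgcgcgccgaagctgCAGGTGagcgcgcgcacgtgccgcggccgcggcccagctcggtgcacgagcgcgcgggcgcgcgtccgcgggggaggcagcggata
Prkci, chr3:30894443-30894668, plus strand, before the start: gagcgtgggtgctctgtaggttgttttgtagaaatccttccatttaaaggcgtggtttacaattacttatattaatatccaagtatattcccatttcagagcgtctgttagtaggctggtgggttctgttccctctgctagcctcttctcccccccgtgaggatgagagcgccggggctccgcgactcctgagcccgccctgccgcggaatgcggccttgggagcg
The Crb3 stretch holds 2 matches, and the 300-base window around that start, from 250 bases before it to 50 after it, holds 4, whose first letters lie at -118, -63, -7 and 25 bases from the start. The window around that Prkcz start holds 3, at -153, -90 and -57, while the windows of the other 2 RefSeq starts of Prkcz hold 0 and 1. The Pard6b start window holds 2, at -141 and -86. Pard3, which did not rise, has 2 windows, with 0 and 3 matches. Of 32851 RefSeq start windows of mouse genes, 5.81% held at least 2 such matches, 0.971% at least 3 and 0.186% at least 4. The Llgl2 stretch holds 3 matches, the upstream Pard6b stretch 2, and the Prkci stretch 0. The Prkci stretch lies before a start and is not the like of the 2 stretches from opening regions. Prkci also has an opening region, at chr3:30937633-30937983, whose middle 300 bases hold 1 match. The opening region downstream of Pard6b, at chr2:167940425-167940840, holds 0.

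**Figure D1:**
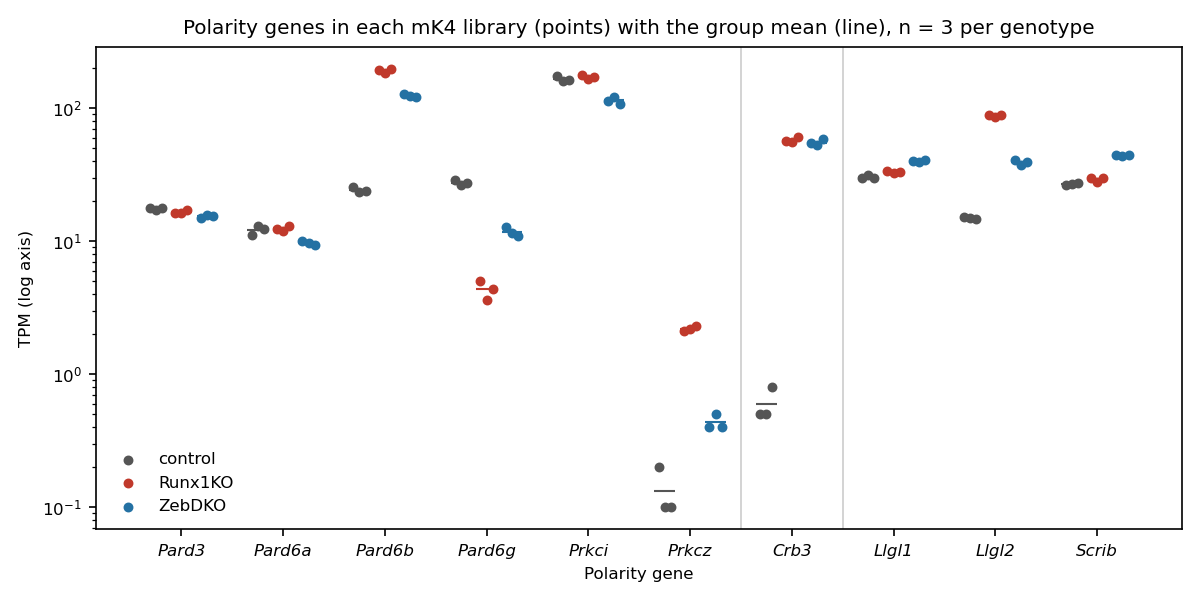
Transcript level in TPM on a log axis (y) of the 10 polarity genes (x) in each library of control (grey), Runx1KO (red) and ZebDKO (blue) mK4 cells, with a line at the mean of the 3 libraries of a genotype. Pard6b, Crb3 and Llgl2 sit higher in both knockouts than in control libraries, Pard6g sits lower, and Prkcz stays under 2.5 TPM everywhere.

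Levels are given as TPM, a share of transcripts that is scaled for gene length and for the library's sum. Changes are log2 fold changes of TPM + 1 from limma, with the standard error (SE) and a Benjamini-Hochberg adjusted p over all genes tested. A gene was tested if 3 or more of the 6 libraries compared reached 1 TPM. "Rose" and "fell" are used for an adjusted p under 0.05. Against control cells, 13067 genes were tested for Runx1KO, of which 7.91% rose and 5.1% fell by more than 2-fold, and 30.4% rose and 40.1% fell at any fold. All 10 polarity genes were tested there: 4 rose and 1 fell by more than 2-fold, and 6 rose and 1 fell at any fold. For ZebDKO 12974 genes were tested, of which 7.49% rose and 7.28% fell by more than 2-fold, and 26.9% rose and 52.5% fell at any fold. Of the 9 polarity genes tested there, 3 rose and 1 fell by more than 2-fold, and 5 rose and 4 fell at any fold. Crb3 in both comparisons and Prkcz in the Runx1KO comparison passed the filter only through the knockout libraries, so that the counts of genes that rose are partly fixed by the filter. The 2 comparisons share the 3 control libraries. The median log2 fold change of all genes tested was -0.06 for Runx1KO and -0.18 for ZebDKO. Median-ratio scaling of the libraries shifted the ZebDKO median by 0.19 on the log2 scale and turned the all-gene split of 972 higher and 944 lower into 1183 higher and 661 lower.

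Pard6b, the adaptor that links aPKC to Cdc42 and Crumbs, had the highest mean TPM of the 10 genes in both knockouts, although in another deposited table of the control and Runx1KO libraries Crb3 (130 TPM) was above Pard6b (107 TPM) in Runx1KO cells. It stood at 25.7, 23.4 and 24 TPM in control, 194, 183.2 and 197.1 TPM in Runx1KO and 127.5, 123.7 and 122 TPM in ZebDKO libraries. The 3 genotypes did not overlap, with Runx1KO highest and control lowest. Pard6b rose in Runx1KO cells (log2 fold change 2.92, SE 0.0455, adjusted p = 1.39e-08, limma) and in ZebDKO cells (2.31, SE 0.0439, adjusted p = 2.9e-08, limma), which on mean TPM is 7.86-fold and 5.11-fold. It was one of the genes that the study itself followed up in these cells, and its direction here is not independent of that choice.

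The other Par6 genes did not follow it. Pard6g stood at 28.6, 26.4 and 27.4 TPM in control, 5, 3.6 and 4.4 TPM in Runx1KO and 12.7, 11.5 and 10.9 TPM in ZebDKO libraries. The ranges did not overlap, in the order opposite to that of Pard6b. Pard6g fell by 2.42 on the log2 scale in Runx1KO cells (SE 0.097, adjusted p = 9.22e-07, limma) and by 1.17 in ZebDKO cells (SE 0.0637, adjusted p = 2.92e-06, limma). The ZebDKO fall dropped to just under 2-fold, at -0.98 and -0.97, under median-ratio scaling and quantile normalization. Pard6a stood at 11.1, 12.9 and 12.3 TPM in control and 12.3, 12 and 13.1 TPM in Runx1KO libraries, which overlapped (log2 fold change 0.04, 95% interval -0.11 to 0.20, adjusted p = 0.591, limma), but Pard6a passed the threshold in the second TPM table, at 0.19. In ZebDKO libraries Pard6a was at 10.1, 9.7 and 9.4 TPM, below every control library. It fell there by 0.29 on the log2 scale (SE 0.0658, adjusted p = 0.00491, limma), a call that was lost under both scalings, at -0.10 and -0.06.

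Summed over the 3 paralogs, Par6 transcripts came to 63.9 ± 1.37 TPM in control, 208 ± 8.33 TPM in Runx1KO and 146 ± 4.08 TPM in ZebDKO cells (SD, n = 3 each). Pard6g made up 43% ± 0.815, Pard6b 38.1% ± 1.05 and Pard6a 19% ± 1.83 of the sum in control cells. In Runx1KO cells Pard6b made up 91.9% ± 0.188 and Pard6g 2.08% ± 0.279, and in ZebDKO cells Pard6b made up 85.3% ± 0.455 and Pard6g 8.02% ± 0.401. These shares compare genes and so rest on the gene lengths behind the TPM. The second deposited TPM table, of the 6 control and Runx1KO libraries, gave Pard6b 22.5% ± 1.68 in control and 75.1% ± 0.672 in Runx1KO cells, and Pard6a 52.5% ± 3.07 and 23.3% ± 0.855. Between the tables the control level of a gene differed by a factor from 0.18 for Prkcz and 0.242 for Pard3 to 2 for Pard6g (first table over second), so an order of levels between genes holds for one table only.

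**Figure D2:**
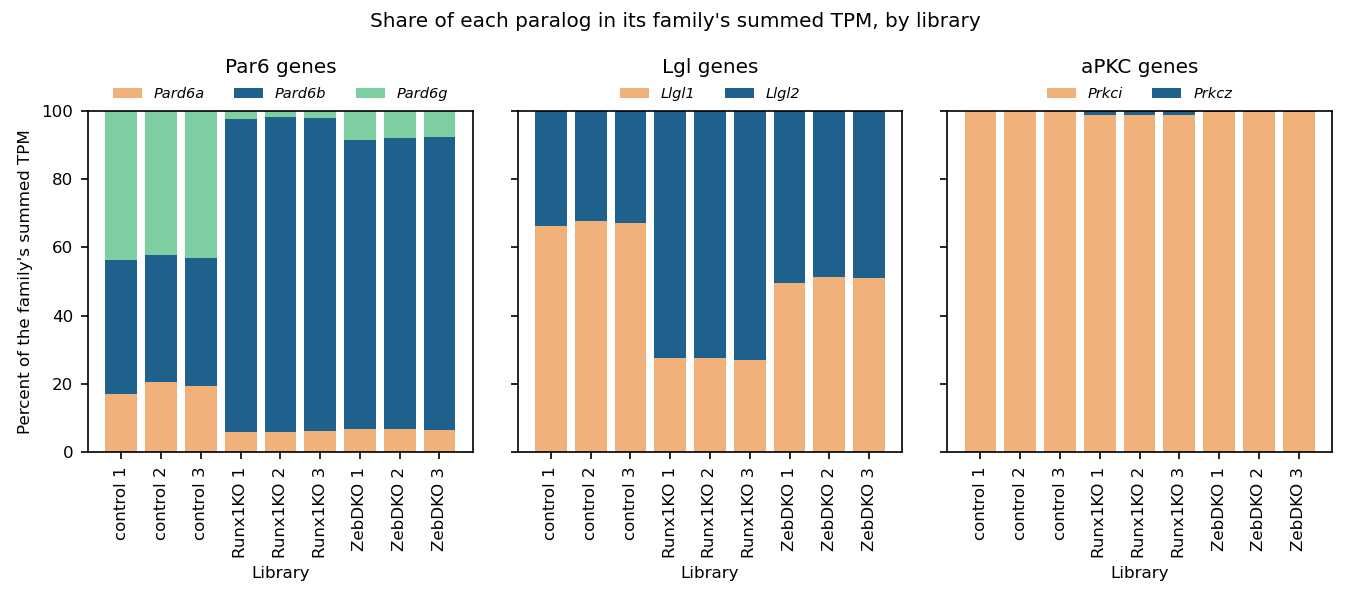
Share of each paralog in its family's summed TPM (y, percent) in each of the 9 libraries (x) for the Par6 genes (left), the Lgl genes (middle) and the aPKC genes (right). Pard6b goes from 38.1% of the Par6 sum in control to 91.9% in Runx1KO cells, Llgl2 from 32.9% to 72.7% of the Lgl sum, and Prkci holds at least 98.7% of the aPKC sum throughout.

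The kinases behaved differently from each other. Prkci, which encodes the aPKC iota isoform, was at 175.4, 160.3 and 163.6 TPM in control and 176.8, 165.2 and 172.6 TPM in Runx1KO libraries, with overlapping ranges (log2 fold change 0.04, 95% interval -0.06 to 0.14, adjusted p = 0.388, limma). Under median-ratio scaling the Runx1KO value was 0.10 and passed the threshold, which made 7 genes that rose at any fold. In ZebDKO libraries it was at 113.6, 121 and 108.1 TPM, below all others, and fell by 0.54 on the log2 scale (SE 0.0521, adjusted p = 4.81e-05, limma). Under median-ratio scaling that fall was -0.34, still past the threshold. Prkcz, which encodes the zeta isoform, was at 0.2, 0.1 and 0.1 TPM in control, 2.1, 2.2 and 2.3 TPM in Runx1KO and 0.4, 0.5 and 0.4 TPM in ZebDKO libraries. The 3 genotypes did not overlap, but control values lie within 1 or 2 steps of the table's smallest unit of 0.1 TPM. Prkcz rose in Runx1KO cells (log2 fold change 1.5, SE 0.0884, adjusted p = 6.69e-06, limma), a value that depends on the pseudocount and was 3.33 with 0.1 in place of 1. It was too low to be tested in ZebDKO cells. Even in Runx1KO cells Prkcz made up 1.27% ± 0.0813 of the aPKC sum (SD, n = 3).

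Pard3, the scaffold of the Par group, stayed close to its control level. It was at 17.8, 17 and 17.8 TPM in control, 16.3, 16.2 and 17 TPM in Runx1KO and 15, 15.7 and 15.5 TPM in ZebDKO libraries. Runx1KO and control libraries met at 17 TPM (log2 fold change -0.08, 95% interval -0.18 to 0.02, adjusted p = 0.113, limma). The ZebDKO libraries lay below every control library, and Pard3 fell by 0.18 on the log2 scale (SE 0.0448, adjusted p = 0.00781, limma). That equals the median of all genes, and the sign turned under median-ratio scaling (0.01) and quantile normalization (0.02).

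Crb3, the apical membrane protein of the Crumbs group, went from near 0 to a level above Llgl1 and Scrib. It was at 0.5, 0.5 and 0.8 TPM in control, 56.3, 55.9 and 60.7 TPM in Runx1KO and 54.5, 52.6 and 58.3 TPM in ZebDKO libraries. Both knockouts lay far above control and overlapped each other. The log2 fold change of TPM + 1 was 5.20 in Runx1KO cells (SE 0.0845, adjusted p = 1.66e-08, limma) and 5.14 in ZebDKO cells (SE 0.0871, adjusted p = 1.91e-08, limma). With a pseudocount of 0.1 these were 6.39 and 6.33, since the control level is low.

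Llgl2, the Lgl gene usually associated with epithelia, was at 15.3, 15 and 14.6 TPM in control, 88.2, 86.1 and 89.2 TPM in Runx1KO and 40.6, 37.5 and 39.1 TPM in ZebDKO libraries. The ranges did not overlap, and ZebDKO lay between the others. Llgl2 rose in Runx1KO cells (log2 fold change 2.48, SE 0.0335, adjusted p = 8.13e-09, limma) and in ZebDKO cells (1.33, SE 0.0454, adjusted p = 3.24e-07, limma), which on mean TPM is 5.87-fold and 2.61-fold. Its paralog Llgl1 was at 30, 31.6 and 30 TPM in control, 33.5, 32.6 and 33 TPM in Runx1KO and 40.1, 39.4 and 40.8 TPM in ZebDKO libraries. Llgl1 rose by small amounts, 0.11 in Runx1KO cells (SE 0.0356, adjusted p = 0.0271, limma) and 0.38 in ZebDKO cells (SE 0.039, adjusted p = 6.43e-05, limma). Llgl2 went from 32.9% ± 0.806 of the Lgl sum in control to 72.7% ± 0.285 in Runx1KO and 49.3% ± 0.847 in ZebDKO cells (SD, n = 3).

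Scrib, the large scaffold of the basolateral side, was at 26.5, 27 and 27.2 TPM in control, 29.9, 28 and 29.7 TPM in Runx1KO and 44.2, 43.7 and 44.2 TPM in ZebDKO libraries. The ZebDKO libraries stood clear of both other genotypes. Scrib rose in ZebDKO cells (log2 fold change 0.69, SE 0.0343, adjusted p = 1.87e-06, limma) and by 0.11 in Runx1KO cells (SE 0.0384, adjusted p = 0.0322, limma). The small Runx1KO rises of Llgl1 and Scrib were lost with the replicate number as a block, at 0.11 each. Without control replicate 1 or 3, or Runx1KO replicate 1 or 3, that of Llgl1 was lost at 0.10 to 0.11, and that of Scrib was lost at 0.10 to 0.12 without any 1 of those 4 or without control replicate 2. In the second table Scrib stood at 0.04 and did not pass.

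**Figure D3:**
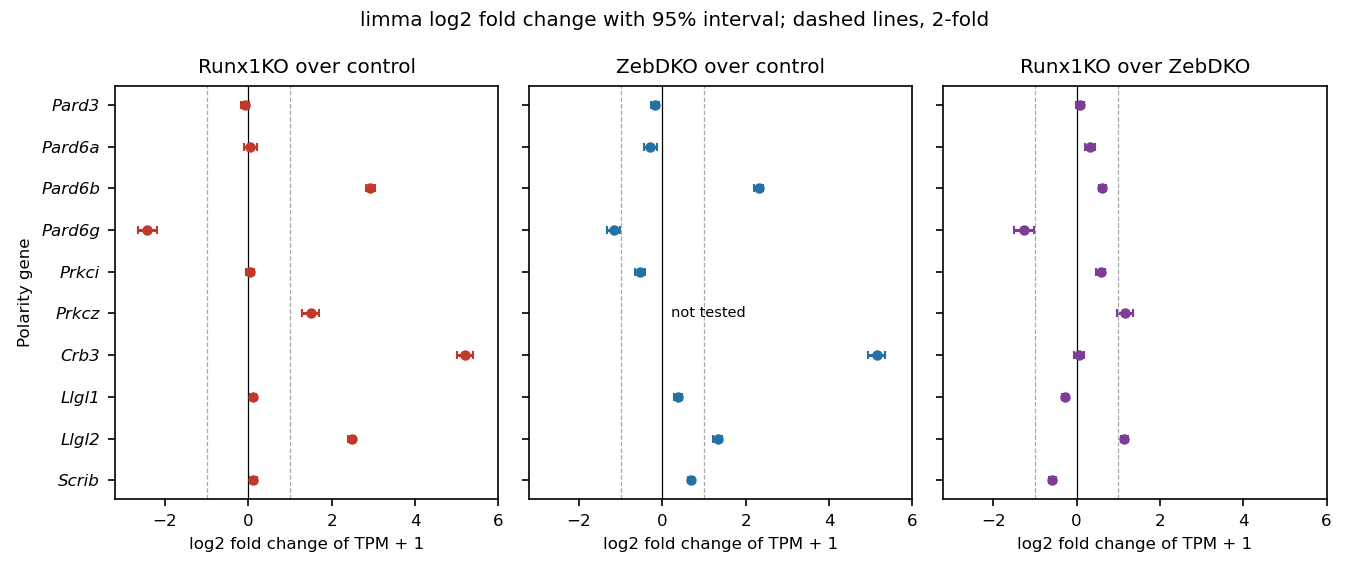
Log2 fold change of TPM + 1 (x) with its 95% interval from limma for the 10 polarity genes (y), for Runx1KO over control (left), ZebDKO over control (middle) and Runx1KO over ZebDKO (right), with 3 libraries per genotype and dashed lines at 2-fold. Crb3 stands at 5.20 and 5.14 over control and at 0.06 between the knockouts, while Llgl2 and Prkcz lie higher and Pard6g lower in Runx1KO than in ZebDKO cells.

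Runx1KO and ZebDKO cells were then compared directly, without the control libraries. The test covered 13071 genes. Relative to ZebDKO, Runx1KO cells had 9.2% of them up and 6.59% down beyond 2-fold, and 50.2% up and 29.8% down at any fold, with a median log2 difference of 0.15. Median-ratio scaling took that median to 0 and turned 1203 higher and 862 lower into 908 higher and 1058 lower. Of the 10 polarity genes, 2 were higher and 1 lower by more than 2-fold, and 5 were higher and 3 lower at any fold. Llgl2 was higher in Runx1KO cells by 1.15 on the log2 scale (SE 0.0377, adjusted p = 2.71e-07, limma), and by 0.99 under median-ratio scaling. Prkcz was higher by 1.16 (SE 0.0848, adjusted p = 1.11e-05, limma), again through Runx1KO libraries alone. Pard6g was lower by 1.26 (log2 difference -1.26, SE 0.106, adjusted p = 2.27e-05, limma). Smaller differences were found for Pard6b (0.62, SE 0.0356, adjusted p = 3.37e-06), Prkci (0.58, SE 0.047, adjusted p = 1.79e-05) and Scrib (-0.58, SE 0.0372, adjusted p = 5.78e-06), all from limma. Pard6a and Llgl1 differed by 0.33 and -0.27, and for Pard6a the difference was 0.18 under median-ratio scaling and 0.09, no longer past the threshold, under quantile normalization. No difference was detected for Crb3 (0.06, 95% interval -0.06 to 0.18, adjusted p = 0.278, limma) or for Pard3 (0.09, 95% interval -0.01 to 0.19, adjusted p = 0.0752, limma). The sign of both turned under the scalings, to -0.10 and -0.01 for Crb3 and to -0.06 and -0.12 for Pard3. Under quantile normalization Pard3 passed the threshold as lower in Runx1KO cells, which made 4 genes lower at any fold.

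The order of the 10 levels was therefore not the same in the 3 genotypes. In control cells Prkci led at 166 ± 7.94 TPM, followed by Llgl1, Pard6g, Scrib, Pard6b, Pard3, Llgl2 and Pard6a, with Crb3 (0.6 ± 0.173 TPM) and Prkcz (0.133 ± 0.0577 TPM) last. Only the neighbours Pard6g and Scrib overlapped there. In Runx1KO cells the order was Pard6b (191 ± 7.3 TPM), Prkci, Llgl2, Crb3, Llgl1, Scrib, Pard3, Pard6a, Pard6g and Prkcz, with no overlap between neighbours. In ZebDKO cells it was Pard6b (124 ± 2.82 TPM), Prkci, Crb3, Scrib, Llgl1, Llgl2, Pard3, Pard6g, Pard6a and Prkcz, where Llgl1 and Llgl2 overlapped.

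A list of 26 further polarity genes was read in the same way. It holds the Par3 paralog and small GTPases of the Par group, the partners of Crumbs, the Dlg scaffolds and the Par-1 and Par-4 kinases. In each comparison 21 of the 26 were tested, and Crb1, Crb2, Lin7a, Dlg2 and Mark1 were too low. In Runx1KO cells 2 of the 21 rose and 1 fell by more than 2-fold, beside 7.91% and 5.1% of all genes, and 8 rose and 8 fell at any fold, beside 30.4% and 40.1%, with a median log2 fold change of -0.08 beside -0.06 for all genes. In ZebDKO cells 1 rose and 1 fell by more than 2-fold, beside 7.49% and 7.28%, and 4 rose and 9 fell at any fold, beside 26.9% and 52.5%, with a median of -0.13 beside -0.18. Between the knockouts 0 were higher and 1 was lower in Runx1KO beyond 2-fold (12 higher and 7 lower at any fold), beside 9.2% and 6.59% (50.2% and 29.8%) of all genes, with a median of 0.36 beside 0.15.

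Patj, the Crumbs-group scaffold that binds Pals1, rose in both knockouts. It went from 3.57 ± 0.306 TPM in control to 21.1 ± 0.265 TPM in Runx1KO (log2 fold change 2.28, SE 0.0602, adjusted p = 1.3e-07, limma) and 15.9 ± 0.265 TPM in ZebDKO cells (1.89, SE 0.0647, adjusted p = 3.26e-07, limma). Tiam1, an exchange factor that activates Rac1 and binds Par3, went from 3.6 ± 0.361 TPM to 9.5 ± 0.265 TPM in Runx1KO cells (1.19, SE 0.0718, adjusted p = 7.42e-06, limma). In ZebDKO cells it was at 7.53 ± 0.379 TPM, a rise of 0.89 that passed 2-fold, at 1.06 and 1.05, under the scalings. Pard3b, the Par3 paralog, went the other way. It was at 4.63 ± 0.603 TPM in control, was listed at 0 in all 3 Runx1KO libraries (adjusted p = 9.67e-07, limma), and was at 2 ± 0.2 TPM in ZebDKO cells (log2 fold change -0.91, SE 0.102, adjusted p = 0.000108, limma). Pard3b passed the filter through the control libraries alone in Runx1KO over control, and through the ZebDKO libraries alone in Runx1KO over ZebDKO. In both it could be called only as lower, and it is the partner counted as lower beyond 2-fold there. Mpp7, a scaffold of the Crumbs and Dlg groups, fell from 11.6 ± 0.289 TPM to 5.27 ± 0.503 TPM in ZebDKO cells (-1.01, SE 0.071, adjusted p = 9.74e-06, limma). Under the scalings that fall was -0.83 and -0.80. In Runx1KO cells Mpp7 also fell, to 7.03 ± 0.289 TPM (-0.65, SE 0.0503, adjusted p = 2.77e-05, limma), short of 2-fold. Mpp5, which encodes Pals1 and joins Crumbs to Patj, rose in Runx1KO cells from 63.1 ± 5.07 TPM to 103 ± 2.83 TPM (0.70, SE 0.0577, adjusted p = 3.75e-05, limma) and stood at 64.5 ± 4.79 TPM in ZebDKO cells (0.03, adjusted p = 0.707). These Mpp5 values were picked after they were seen.

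Some other epithelial transcripts, but not all, were higher in the knockouts than in control libraries. The summed TPM of 5 epithelial markers (Cdh1, Epcam, Krt8, Krt18 and Cldn4) was 2.1 to 4.1 in control, 2568 to 2649 in Runx1KO and 1144 to 1203 in ZebDKO libraries. Krt8 made up most of it, at 2353 ± 46.4 TPM in Runx1KO and 1050 ± 32 TPM in ZebDKO cells, whereas Krt18 was at 32.4 ± 1.88 and 42.8 ± 4.8 TPM. Cdh1, which encodes E-cadherin, stayed under 1 TPM in every library, and Epcam was under 1 TPM in control and Runx1KO and at 27.9 ± 1.1 TPM in ZebDKO cells. Of 10 markers of metanephric mesenchyme, Six2, Wt1, Hoxd11 and Cited1 were under 1 TPM in all 9 libraries, whereas Pax2, Sall1, Eya1 and Vim were expressed in all. Osr1 was at 66.4 ± 3.87 TPM in control, 0.4 ± 0.1 TPM in Runx1KO and 18.2 ± 0.987 TPM in ZebDKO cells, and Gdnf at 12.7 ± 1.15, 0.1 and 39.8 ± 1.44 TPM. The sum of the 10 ranged from 2400 to 3419 TPM and was mostly Vim, which was at 2803 ± 73.8 TPM in control cells. Leukocyte and endothelial lists (3 genes each) summed to at most 3.3 and 5.8 TPM, and Ptprc was listed at 0 throughout. Whether cell makeup has a part in the polarity results was not tested, and in bulk RNA more cells of a type and more RNA per cell cannot be told apart. The 9 libraries each had 12541 to 12697 genes at 1 TPM or more, and libraries of a genotype correlated at 0.997 to 0.998 (Pearson's r of log2(TPM + 1) across genes, a description).

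The targeted genes check the labels only in part, because TPM covers the whole gene and not the deleted exon. The study itself showed the deletions by PCR and the loss of Runx1 and Zeb1 protein by Western blot. It had no working antibody for Zeb2. Runx1 was at 17.4 ± 1.61 TPM in control, 29.6 ± 0.987 TPM in Runx1KO and 10.1 ± 0.608 TPM in ZebDKO cells. Zeb2 was at 5.2 ± 0.3 TPM in control, at 0.2 TPM in all 3 Runx1KO libraries and at 1.7 ± 0.1 TPM in ZebDKO cells. Zeb1 was at 15 ± 0.709 TPM in control, 0.167 ± 0.0577 TPM in Runx1KO and 16.1 ± 1.1 TPM in ZebDKO cells, so transcripts of the gene were still counted where its second exon was deleted.

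Accessibility around the polarity genes was then read from the authors' ATAC-seq lists of 9427 regions that opened, 8741 that closed and 37481 that stayed open in Runx1KO cells. Regions were taken within the gene body and 20 kb on either side. These lists carry no value per replicate, so what follows is a description without a test. At least 1 opening region lay near 7 of the 10 genes, beside 39.5% of 11148 genes tested in Runx1KO over control and placed on the GENCODE vM1 annotation, and beside 77% of the 881 placed genes that rose by more than 2-fold. At least 1 closing region lay near 3 of 10, beside 28.4% of all and 64.1% of the 585 placed genes that fell by more than 2-fold. All 10 had a region open in both, beside 96.7%. Longer genes collect more regions, and Pard3, which spans chr8:129587793-130136186, held 3 opening, 8 closing and 17 staying regions, all the opening and closing ones intronic.

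**Figure D4:**
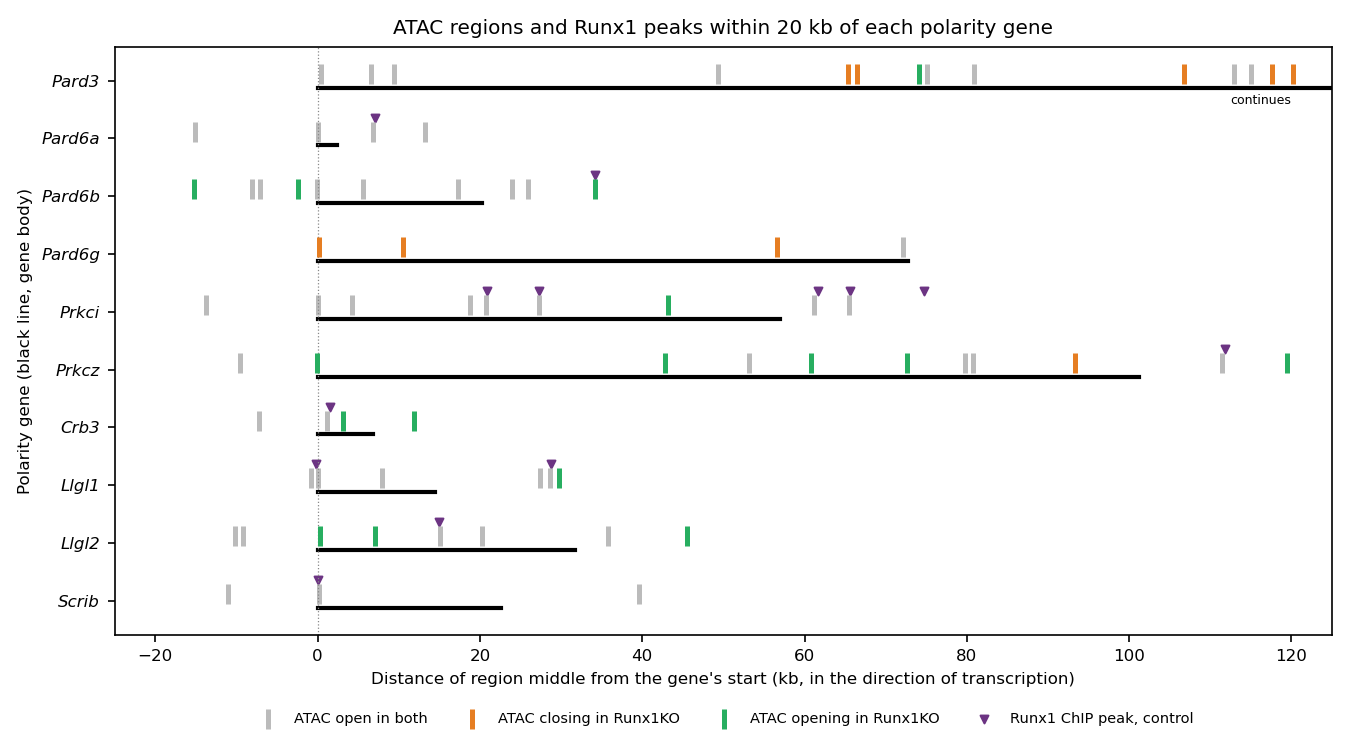
Middle of each ATAC-seq region open in both genotypes (grey), closing (orange) or opening (green) in Runx1KO cells, and of each Runx1 ChIP-seq peak of control cells (purple triangles), by distance in kb from the start of the gene (x) for the 10 polarity genes (y), within 20 kb of each gene. Black lines are gene bodies, and Pard3 runs past the right edge. The starts of Prkcz and Llgl2 carry opening regions, that of Pard6g a closing one, and the opening region of Crb3 at 3.2 kb covers the start of its shorter transcripts.

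Regions over the gene starts differed among the 10 genes. Llgl2 (chr11:115685363-115717094, plus strand) had its start inside an opening region at chr11:115684974-115686320. Prkcz (chr4:154634238-154735470, minus strand) had its start inside an opening region at chr4:154735025-154736059. Crb3 (chr17:57198528-57205341, plus strand) had no region over its annotated gene start, and the opening region at chr17:57201352-57202026 covered both RefSeq starts, at 57201624 and 57201654. Pard6b (chr2:167906504-167926703, plus strand) had a start that was open in both genotypes, and its nearest opening region, at chr2:167903969-167904302, had its middle at -2369 bases, upstream. Pard6g on chromosome 18, the gene that fell, was the only one of the 10 with its start inside a closing region, and had 2 more closing regions in introns and 0 opening ones. The starts of Pard3, Pard6a, Prkci, Llgl1 and Scrib, which stayed within 10% of control in Runx1KO cells, all lay in regions open in both genotypes. Within 1 kb of the annotated gene start, 4.44% of the 11148 genes had an opening and 2.37% a closing region. Of the 881 placed genes that rose by more than 2-fold, 35.4% had an opening region there. Of the 585 that fell by more than 2-fold, 29.4% had a closing one. A region open in both lay there at 7 of the 10 polarity genes, beside 78.9% of the 11148, so an open start is the common state.

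Runx1 and Runx2 peaks were then placed at the same genes. Within the gene body and 20 kb, the lists held 16 Runx1 peaks of control cells, 31 Runx2 peaks of control cells and 34 Runx2 peaks of Runx1KO cells, with at least 1 Runx1 peak at 9 of the 10 genes, beside 46.7% of the 11148 genes. Pard6g was the gene without one in this window. The contrast depended on the window. Within 1 kb of the start 2 of the 10 had a Runx1 peak, beside 18.3%. With 50 kb on either side all 10 had one, Pard6g included, beside 63.2%. A Runx2 peak lay at 9 of the 10 genes in control and at all 10 in Runx1KO cells, beside 76.8% and 77.8% of the 11148 genes. Of the 16 Runx1 peaks, 12 overlapped a region open in both genotypes, 1 an opening region, 0 a closing region and 3 none. Counted by region, 12 of the 57 open in both near polarity genes overlapped a Runx1 peak, beside 10.3% of all such regions. Of the 12 closing regions 0 did, beside 11.8%. The authors' fold enrichment of these 16 peaks ran from 3.75 to 9.93 with a median of 4.72, beside 4.45 for all Runx1 peaks. The peak of 9.93 lay in Prkci at chr3:30921699-30922105, where Runx2 peaks had folds of 10.6 in control and 11.1 in Runx1KO cells. At Crb3 a Runx1 peak (fold 5.64, chr17:57199734-57200275) and Runx2 peaks of both genotypes (7.05 and 7.67) lay upstream of the RefSeq starts, in a region open in both. At Llgl2 a Runx1 peak (fold 6.88, chr11:115700181-115700485) and Runx2 peaks (8.56 and 7.17) also lay in a region open in both, inside the gene. The single opening region with a Runx1 peak lay downstream of Pard6b at chr2:167940425-167940840, so 1 of the 18 opening regions near polarity genes overlapped a Runx1 peak, beside 1.25% of all opening regions. Runx2 peaks of control cells overlapped 2 of the 18, beside 3.64%, and Runx2 peaks of Runx1KO cells 1, beside 3.28%.

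Letters that Zeb proteins can bind were then counted in these regions. In the 300 bases around the middle, 15 of the 18 opening regions near polarity genes (83.3%) held CAGGTG or CAGGTA on either strand, beside 62.7% of all 9427 opening regions. Over whole regions the difference was smaller, with 83.3% beside 78.9%. The same letters were in 2 of 12 closing regions (16.7%, beside 18.7% of all) and in 14 of 57 regions open in both (24.6%, beside 33.3%). CAGGTG alone was in 12 of the 18 opening regions (66.7%), beside 48.4% of all, and CAGGTA in 8 (44.4%), beside 25.4%. Over whole regions CAGGTG was in 66.7%, beside 64.9% of all. The Runx letters TGTGGT were in 3 of the 18 opening regions (16.7%, beside 21% of all), 4 of the 12 closing regions (33.3%, beside 35.5%) and 11 of the 57 open in both (19.3%, beside 19.8%). The 18 regions are not independent of each other, since several lie in 1 gene: 5 at Prkcz, 3 each at Pard6b, Llgl2 and Pard3, 2 at Crb3 and 1 each at Llgl1 and Prkci. Those of Llgl1, and 1 each of Crb3 and Llgl2, lie over the neighbouring genes Smcr7, Dennd1c and Myo15b. In the RefSeq start windows, 7 of the 12 windows of 7 polarity genes held CAGGTG or CAGGTA, beside 29.5% of all windows, and these belonged to 5 genes. The 2 Crb3 windows overlap and hold the same 4 matches, so the windows are not independent of each other either.
The windows with a match included 1 of Pard6a (1 match) and 1 of Pard3 (3 matches), whose levels were within 10% of control in Runx1KO cells, so the letters were not confined to genes that rose. A match to letters is not a measurement of binding, and Zeb binding was not measured.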

How the data were processed

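RNA-seq was measured in 9 libraries (3 per genotype), and ATAC-seq and ChIP-seq in control and Runx1KO cells. The authors trimmed reads (Trim Galore, FastQC), mapped them with STAR (mm9 genome), discarded duplicate reads, counted RefSeq genes with featureCounts 1.6.2 and deposited TPM, in one table of all 9 libraries and another of 6. Depth cannot be had from TPM, so precision rests on the spread between libraries. Their ChIP-seq peaks (MACS2, replicates combined, peaks also found by the Runx1 antibody in Runx1KO cells removed) carry a fold enrichment as deposited by the authors. Their ATAC-seq lists hold positions of peaks kept in 2 or more of 3 replicates, deposited as 3 lists (opening, closing and open in both). The study's methods call a peak shared between conditions if it overlapped one from any replicate. They give no limit on the size of a change in accessibility. Columns of the authors' own comparisons (DESeq2 1.26.0 for expression, accessibility changes in the region lists) were not used.

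Log2(TPM + 1) of genes reaching 1 TPM in 3 of 6 libraries was fitted with limma 3.58.1 (R 4.3.3, trend in the prior variance) on the 6 libraries compared, with Benjamini-Hochberg adjustment over all genes tested. The fit was tested on simulated data. Calls needed an adjusted p under 0.05, and where stated over 2-fold. All 10 members were named in every comparison, with the targeted genes and the partner genes past 2-fold. Members and lists were chosen with earlier results of these data known. Regions were placed on GENCODE vM1 (mm9), and start windows came from RefSeq (GRCm38.p6), all 12 matching mm9 exactly once. No start window was used for Pard6g, Llgl2 and Scrib. Alternatives were another pseudocount (0.1, 0.5), filter (none, 5 TPM), scaling, fold limit (1.3), fit, table, window and motif, a replicate block, and leaving out each library. Same-numbered libraries did not deviate together (correlations from -0.09 to 0.01 across 9614 genes).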

Additional observations from a re-analysis of the deposited data

Results flagged for a closer look

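Between the knockouts, Pard6g differed by -1.26 on the log2 scale (Runx1KO over ZebDKO, limma adjusted p = 2.27e-05), and all 3 Runx1KO libraries lay below all 3 ZebDKO libraries. Llgl2 differed by 1.15 (adjusted p = 2.71e-07, limma), with the Runx1KO libraries higher in all 3. Prkcz differed by 1.16 (adjusted p = 1.11e-05, limma), at levels of at most 2.3 TPM. It passed the filter only through the Runx1KO libraries, so it could be called only as higher there. These 3 genes were listed because the direct test of the 2 knockouts passed beyond 2-fold, and groups of 3 libraries were too small for a test of outlying libraries.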

How the results depend on the processing

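Of the members' log2 fold changes under the alternatives, 419 kept direction and side of the threshold and 15 lost the call. Another 2 gained it with the sign kept, and 7 turned sign. The 2 gains, in Runx1KO over control, were Prkci at 0.10 under median-ratio scaling and Pard6a at 0.19 in the 6-library table. With a 1.3-fold limit the polarity genes called in ZebDKO over control were 5 higher and 2 lower, and in Runx1KO over ZebDKO 4 higher and 2 lower. Those higher in Runx1KO over ZebDKO were 1 with the 5 TPM filter and 1 under median-ratio scaling. Under median-ratio scaling and quantile normalization, those lower in ZebDKO over control were 0 beyond 2-fold and 2 at any fold. The signs that turned under these scalings were Pard3 in ZebDKO over control (0.01 and 0.02), and in Runx1KO over ZebDKO Crb3 (-0.10 and -0.01) and Pard3 (-0.06 and -0.12). At -0.12, under quantile normalization, Pard3 passed the threshold in the turned direction, so that 4 polarity genes were lower at any fold. Pard6a in Runx1KO over ZebDKO lost its call under quantile normalization (0.09). The cause was not tested. Leaving out 1 library gave 4 to 6 genes higher at any fold in Runx1KO over control and moved Pard6a from -0.01 (without control replicate 1) to 0.09, and moved none of the other counts of polarity genes. Over all genes, the 1.3-fold limit gave 2413 higher and 2444 lower in Runx1KO over control, 2244 and 4502 in ZebDKO over control and 4376 and 2404 between the knockouts, and the 5 TPM filter gave 442 lower in Runx1KO over control and 566 lower between the knockouts. With the replicate number as a block, Llgl1 (0.11) and Scrib (0.11) lost their calls in Runx1KO over control, leaving 4 genes higher at any fold, and no other call of a polarity gene changed. The numbers do not pair the libraries.

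Opening regions lay within 1 kb of the start at 2 of 10 genes, beside 4.44% of the 11148 placed genes. Closing regions lay there at 1, beside 2.37%, and at 5 within the gene body and 50 kb, beside 44%. In whole regions 15 opening ones (83.3%, beside 78.9% of all) and 5 closing ones (41.7%, beside 40.5% of all) held CAGGTG or CAGGTA. In the 6-library table the shares in control and Runx1KO cells were 52.5% and 23.3% for Pard6a, 22.5% and 75.1% for Pard6b, 25.1% and 1.55% for Pard6g, 24.9% and 64.9% for Llgl2 and 0.834% and 3.73% for Prkcz.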
